A study of Mus musculus with 2 samples.

Results

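The IFIT and OAS antiviral effectors are 9 mouse genes, Ifit1, Ifit2, Ifit3, Oas1a, Oas1b, Oas2, Oas3, Oasl1 and Oasl2. They were taken by gene symbol, with every probe of a listed gene kept: 13 of the 46176 probes that have a gene name, for 9 of 26883 named genes. They were read on 2 single-colour arrays of one glioblastoma stem cell line, which had been derived as neurospheres from tumours that an SB transposon had induced in mice and kept in serum-free medium with EGF and bFGF. On the control array the cells stably carried a lentiviral hairpin RNA without a target, and on the knockdown array a lentiviral hairpin RNA against Stat5b, so both groups had been through lentiviral transduction. Each group was 1 array of 1 line, with no replicate, so no test was possible and no p-value is given. The number of separate hairpins or clones behind the knockdown array is not given in the sources used here.

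IFIT proteins (interferon-induced proteins with tetratricopeptide repeats) bind RNA that lacks the marks of the cell's own messengers, such as an uncapped or incompletely methylated end, and keep it from being translated. OAS enzymes (oligoadenylate synthetases) sense double-stranded RNA and then make short 2'-5' linked chains of adenylate, called 2-5A, a signal that leads to the cutting of RNA. Both families are nearly silent in most resting cells and are classical targets of type I interferon, whose receptor acts through the ISGF3 complex, which holds Stat2 and Irf9. Stat5b, the gene lowered here, is another member of the STAT family and answers to cytokine and growth factor receptors.

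Most of these genes were dim on the control array, and 7 of the 8 that could be measured on both arrays were higher on the knockdown array. The median difference of the 8 was 0.73 on the log2 scale. Ifit1, Oas1a and Oasl2 were at least 2-fold higher, and none was 2-fold lower. Ifit2, Ifit3 and Oas3 lay between 1.63-fold and 1.68-fold higher, and Oas1b and Oasl1 were within 0.2 of 0 on the log2 scale. Oas2 was detected in knockdown cells alone, on 1 of its 2 probes. Set against all 16353 genes measured on both arrays, 3 of 8 stand beside 3.67% of genes past 2-fold upward, 0 of 8 beside 2.41% past 2-fold downward, and 7 of 8 beside 51.2% that were above 0. The median of all genes was 0.01. The IFIT and OAS genes were chosen with earlier results of these arrays known. Their counts beside those of all genes are therefore a description and are no independent evidence of a direction.

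Here the processed signal is the scanner software's background-corrected brightness of a spot. A difference is log2 of the knockdown array's signal over the control array's, after each array was scaled to the 75th percentile of its probes, which was a signal of 493.2 for control and 493.6 for knockdown. The error after ± is the software's own error of that difference and does not cover variation between cultures. The measured spread was an SD of 0.0558 over replicate spots of 1 probe (297 probes) and 0.310 over different probes of 1 gene. A difference of 1 or more, that is 2-fold, was the rule of size.

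The targeted gene was lower on the knockdown array, as labelled. Stat5b gave a signal of 1991 in control cells and 497.7 in knockdown cells, a difference of -2.0 ± 0.20. Its other probe was dim and well above background in control cells only, at 14.7 against 7.49, or at least 1.13-fold lower. That bound carries no error, while the software's error of this dim probe's difference was 0.66 on the log2 scale. Stat5a, the close relative of Stat5b, differed by 0.07 ± 0.14, with its 2 probes at 0.11 and 0.02. Of 12 neural and glioma stem cell markers 9 were measured, with a median of -0.10. L1cam at -1.39 was the 1 past 2-fold, downward, followed by Pax6 at -0.70 and Nes at -0.20, and Sox9 at 0.40 was the highest, while Sox2 and Fabp7 were not well above background in either sample and Olig2 only on the knockdown array. The software called 59.5% of control probes and 58.6% of knockdown probes well above background, 0 probes were saturated, and both arrays lay on 1 slide.

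Among the IFIT genes, Ifit1, which recognises the 5' end of foreign RNA, showed the widest gap of the group. Its single probe gave a signal of 34.0 in control cells and 223.6 in knockdown cells. The difference was 2.72 ± 0.23, or 6.57-fold, and only 12 of the measured genes differed by more in that direction. Ifit1 was also set beside the 3105 probes within 0.5 of its mean log2 level. Their differences had an SD of 0.64, against 0.36 for the 1052 probes as bright as the brightest Oas1b probe, and 99.7% of them were lower than that of Ifit1.

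Ifit2, which partners with the other IFIT proteins and in cells of the brain restrains several RNA viruses, gave 72.1 in control cells and 121.0 in knockdown cells. That is a difference of 0.75 ± 0.21, below the 2-fold rule. Ifit3 gave 16.7 and 27.2, a difference of 0.70 ± 0.34. All 3 IFIT genes were thus higher on the knockdown array, Ifit1 by far the most, and Ifit3 was close to the detection limit, since the lowest signal well above background was 12.098 for control and 12.989 for knockdown.

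Of the OAS genes, Oas1a encodes an active synthetase of the small, single-unit type. Its probe gave 36.9 in control cells and 111.9 in knockdown cells, a difference of 1.60 ± 0.23, or 3.03-fold, with 143 genes higher. Oas2 encodes the middle-sized and Oas3 the largest synthetase, and both were near or below detection. Oas3 gave 14.1 and 23.3, a difference of 0.72 ± 0.40, and this probe lies among the last 64 rows of 384. One probe of Oas2 gave 9.29 in control cells, not well above background, and 24.0 on the knockdown array, which bounds it at least 1.98-fold higher. The other probe of Oas2 read 3.02 and 3.27, neither of them well above background. So Oas1a, Oas2 and Oas3 all read higher on the knockdown array, with Oas1a past 2-fold and Oas3 short of it. Oas2 has only the bound of 1.98-fold from 1 dim probe. That bound carries no error, while the software's error of this probe's difference was 0.46 on the log2 scale.

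Oas1b is the mouse gene that sets resistance to flaviviruses, and its protein lacks synthetase activity. Its 3 probes read very differently in brightness: 1 gave 12531 in control cells and 14039 in knockdown cells, 1 gave 138.6 and 149.1, and the third gave 2.55 and 6.49, neither of them well above background. The differences of the first and the second were 0.16 and 0.10, for a gene value of 0.13 ± 0.15. Neither exceeds the spread over different probes of 1 gene.

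The bright Oas1b probe carries a sequence that recurs near the start sites of many other genes, which is why a stretch of it is shown. A run of 16 bases from it was found in 80 of 32851 promoter windows of RefSeq (GRCm38.p6), belonging to 78 genes. Oas1b has no window in that set, so a match to its own promoter could not be looked for. Each other probe of the 9 genes shared such a run with 0 or 1 window. Bases 6 to 35 of the probe's 60 are given 5' to 3' as the array files hold them, with capitals on the bases that lie in a run shared with 44 to 49 of the windows.
Oas1b, bright probe: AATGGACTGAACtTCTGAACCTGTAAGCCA
Whether this probe takes up signal from other transcripts was not tested. The second probe's difference, 0.10, does not rest on this sequence.

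Oasl1 and Oasl2 encode OAS-like proteins that carry ubiquitin-like domains. Oasl1 is known as a brake on Irf7 translation, and mouse Oasl2 keeps synthetase activity. They sit side by side in the genome and differed here. The probe of Oasl2 gave 186.6 in control cells and 438.5 in knockdown cells, a difference of 1.23 ± 0.21, or 2.35-fold, with 342 genes higher. The probes of Oasl1 gave 784.8 and 793.5, a difference of 0.01, and 2633 and 2570, a difference of -0.04, the latter in the last 64 rows. The gene value of Oasl1 was -0.01 ± 0.14, the only one of the 8 below 0.

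**Figure D1:**
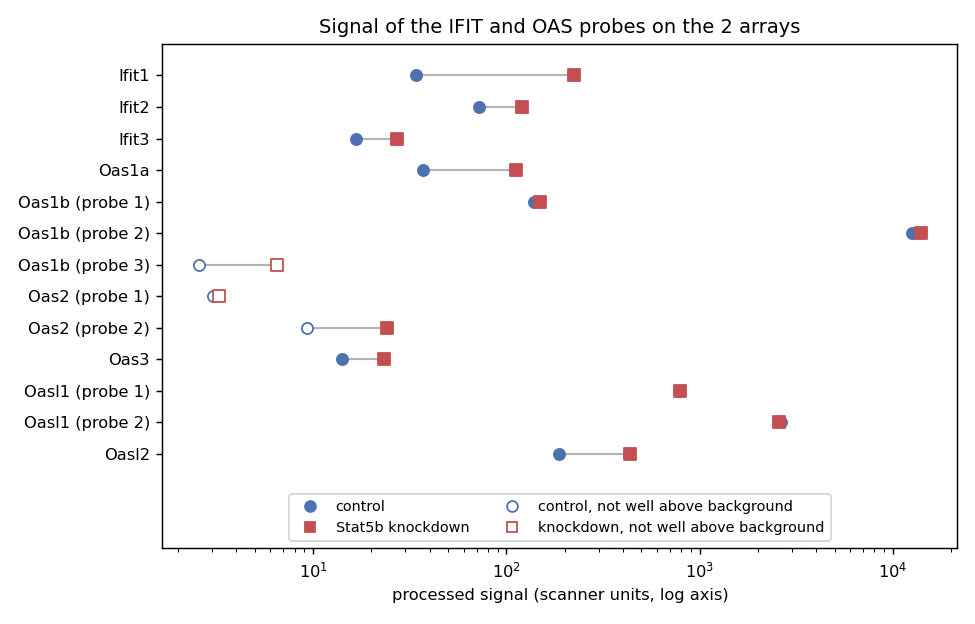
Processed signal (horizontal log axis, scanner units) of each of the 13 probes on the control array (blue circles) and the knockdown array (red squares), with open symbols where the spot was not well above background. The gap is widest for Ifit1 (34.0 and 223.6), while both arrays nearly coincide for Oasl1 and for the measured Oas1b probes.

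Level and place on the array were checked for the 9 genes. In all, 10 of the 13 probes were well above background on both arrays, 1 on the knockdown array alone and 2 on neither. The scaled signal was higher on the knockdown array for 12 of 13, a count that includes the probes not well above background. Without the filter on dim probes the median of all genes was itself 0.10, and the matching share of all probes was not computed. Not one of the 13 carried an outlier flag. The median difference of the probes around each one, within 10 rows and columns, lay between -0.05 and 0.06. Among 11867 genes within the level range of the measured members, 4.75% were at least 2-fold higher, and among 3794 genes at or below their median level 6.83% were.

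**Figure D2:**
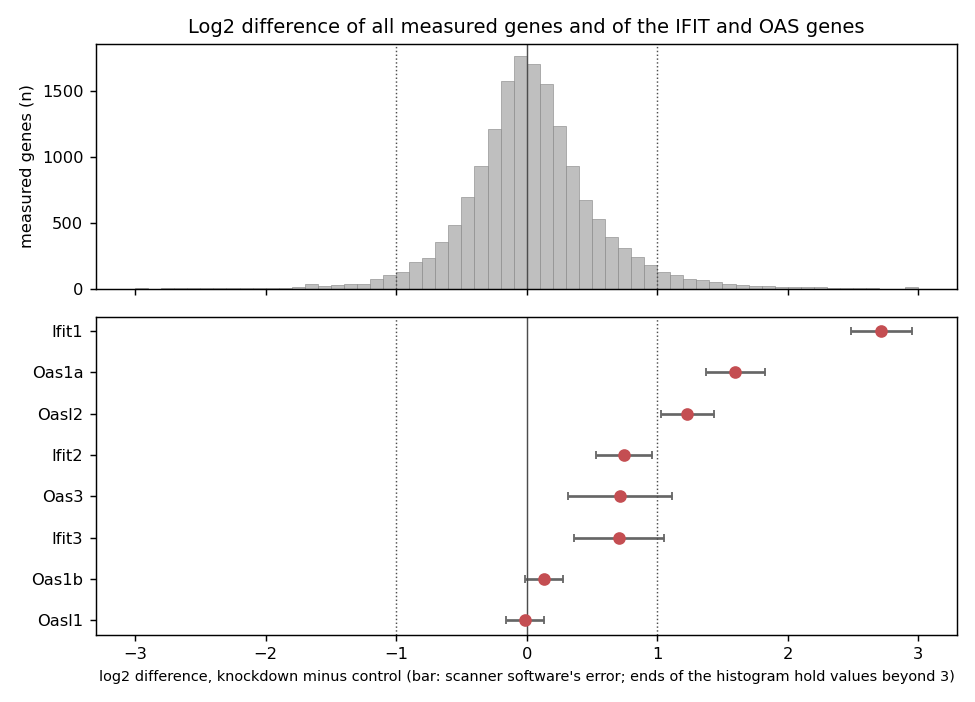
The upper panel counts the 16353 measured genes by log2 difference, knockdown minus control, in steps of 0.1, with values beyond 3 placed in the end bars. The lower panel gives the 8 measured IFIT and OAS genes with the scanner software's error, and dotted lines mark 2-fold: Ifit1, Oas1a and Oasl2 lie to the right of it.

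The size of these differences depended on how background was handled. With normexp background correction, which adds an offset of 50 and so draws dim signals together, Ifit1 differed by 1.50, Oas1a by 0.92 and Oasl2 by 1.03, so that Oas1a no longer passed 2-fold. Under the same correction Ifit2 differed by 0.43, Ifit3 by 0.19 and Oas3 by 0.15. The sign of every one of these 6 genes stayed the same.

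The paralogs of the same families followed no single pattern. Of 9 listed paralogs 5 were measured on both arrays, 4 of them above 0 and 2 past 2-fold upward, the median being 0.22. Oas1c gave 51.5 in control cells and 140.5 in knockdown cells on one probe, a difference of 1.45 ± 0.22, and its other probe was above background in knockdown cells only, at least 1.35-fold higher. The bound of this other probe carries no error, while the software's error of its difference was 0.45 on the log2 scale. Oas1f gave 35.3 and 76.6, a difference of 1.12 ± 0.24, on a probe in the last 64 rows. Ifit1bl2 differed by 0.22, Oas1e by 0.03 and Oas1d by -0.19, and Ifit1bl1, Ifit3b, Oas1g and Oas1h were not well above background in either sample.

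Paralogs can share probe signal, so the probes were compared base by base. The closest pair was Oas1a and Oas1f, identical at 41 of 58 aligned bases (70.7%), and the next closest pair reached 55.8%. The first 30 bases of both are shown 5' to 3', with capitals on the 14 bases that make up their longest shared run.
Oas1a probe: TGTCCACCTGTTGGaaggttctgtctgaca
Oas1f probe: ccTGTCCACCTGTTGGgaggttctgtccaa
No run of 20 bases from a probe of the 9 genes or their paralogs occurred in any other probe of the array. How much signal of Oas1f the Oas1a probe takes up, or the reverse, was not tested, so the values of both are uncertain to that degree. Probes were compared with probes and not with the transcripts of paralogs. Whether any of the other probes takes up signal of a paralog was therefore not tested either.

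Genes that act beside the OAS enzymes, in the turnover of 2-5A or on double-stranded RNA, differed little. Abce1, an ATP-binding protein of ribosome recycling, differed by -0.08, with its 2 probes at -0.30 and 0.14. The 2-5A degrading enzymes Pde12 and Akap7 differed by -0.08 and 0.14, with the 3 probes of Akap7 from -0.13 to 0.45. Eif2ak2, the kinase PKR that senses the same double-stranded RNA, differed by 0.21. Adar, which edits double-stranded RNA, differed by -0.06, but its 2 probes disagreed, at -0.59 and 0.47. Of these 5 genes 0 passed 2-fold in either direction, 2 were above 0 and the median was -0.06.

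Upstream, the interferon genes that could be measured read lower on the knockdown array. Of 11 listed interferons 3 were measured, Ifna1, Ifna5 and Ifnl3, with differences from -0.66 to -0.53, and all 3 probes lie in the last 64 rows. Ifnb1 was not well above background in either sample, and Ifna2 was above background in control cells only. Of 9 interferon receptors and kinases 5 were above 0 and 0 passed 2-fold, with Ifnar2 at 0.66 and Tyk2 at 0.61 the highest and a median of 0.25. Of 8 genes of ISGF3 and the interferon regulatory factors 7 were above 0 and 0 passed 2-fold, with a median of 0.25. Among these Irf1 differed by 0.96, Irf7 by 0.89 and Irf8 by 0.46, while Stat2 differed by 0.06 and Irf3 by -0.10. The 2 probes of Stat2 disagreed, at -0.30 and 0.41.

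Sensors of foreign nucleic acid, which start interferon production, were mixed. Of 12 listed 11 were measured, 8 above 0 and 4 past 2-fold, the median being 0.22. Ddx58, which encodes the RNA sensor RIG-I, differed by 1.42, the kinase gene Ikbke by 1.23 and Ifih1, which encodes the sensor MDA5, by 1.22. At the other end were Tlr7 at -0.21 (on 1 of its 3 probes), Trim25 at -0.14 and Cgas at -0.05. The 3 probes of Trim25 disagreed, from -0.65 to 0.44. Of 7 feedback genes 4 were above 0, and Isg15, a ubiquitin-like protein that is also an interferon target, was the 1 past 2-fold, at 1.24.

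Other interferon-stimulated genes were read for comparison. Of 38 listed 29 were measured, 26 were above 0, 9 reached 2-fold higher and 0 reached 2-fold lower, at a median of 0.61. Xaf1 at 2.49 (on a probe in the last 64 rows), Rtp4 at 2.04 and Phf11d at 1.65 were the highest. Parp12 at -0.29, Mx1 at -0.23 and Trim30a at -0.20 were the 3 below 0. Ifih1 stands in this list and in that of the sensors. The list was drawn up with earlier results of these arrays known, so its counts are a description and are no independent evidence of a direction.

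**Figure D3:**
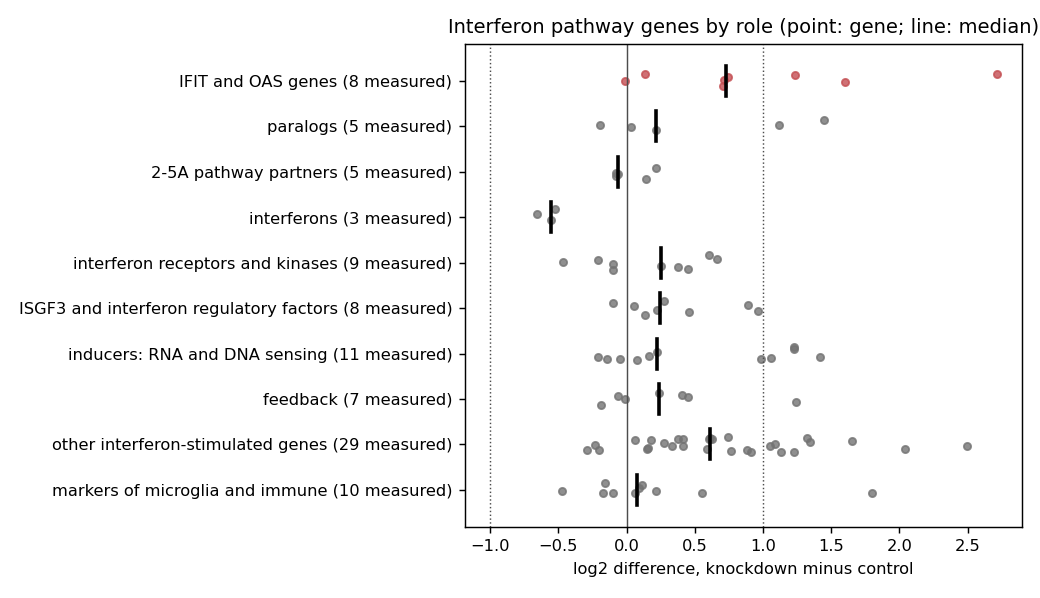
Each point is 1 gene measured on both arrays, placed by its log2 difference (knockdown minus control) and grouped by its role, with a black line at the median and dotted lines at 2-fold. The medians of the IFIT and OAS genes (0.73) and of the other interferon-stimulated genes (0.61) lie farthest to the right of the 10 groups drawn, and the 3 measured interferons lie to the left of 0. The astrocyte markers (3 measured), which are not drawn, had a higher median of 0.94.

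Immune cells can express these genes strongly, so their markers were read as well. Of 15 microglia and immune markers 10 were measured, 6 were above 0 and 1 exceeded 2-fold, the median being 0.08. The sum of their scaled levels was 10.6 in control cells and 13.6 in knockdown cells. A gap of that size lies in Ptprc alone, whose log2 level was 2.74 and 3.29, read on 1 of its 7 probes, in the last 64 rows. Tmem119 at 1.80 was the highest and Cd68 at -0.48 the lowest, and Aif1, Cx3cr1, Tyrobp, C1qa and P2ry12 were not well above background in either sample. Of 6 astrocyte markers 3 were measured, with a median of 0.94 and a summed level of 1.54 against 3.38, most of it from Aldoc at 1.19. Aqp4 was at 0.94, with probes from -0.02 to 1.90, and Aldh1l1 was at -0.08. Gfap was above background in control cells only, S100b in knockdown cells only, and Slc1a3 in neither sample. Endothelial and mural markers (5 of 8 measured) had a median of 0.26, from Cdh5 at -0.75 to Pdgfrb at 2.19, the 1 past 2-fold. Neuron markers (4 of 5) had a median of 0.24. The part of any of these cell types in the differences of the IFIT and OAS genes was not tested. In RNA from a whole culture, more RNA per cell and more cells that express a gene cannot be told apart.

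The 9 genes fall into 3 groups by position. The IFIT genes lie together on chromosome 19, the OAS genes on chromosome 5, and Oasl1 and Oasl2 elsewhere on chromosome 5. In the IFIT group the order was Ifit2, Ifit3, Ifit1bl1, Ifit3b, Ifit1bl2 and Ifit1. The 2 nearest measured genes on the Ifit2 side were both at least 2-fold higher, Ch25h, which makes the antiviral oxysterol 25-hydroxycholesterol, at 1.43 and Lipa, a lysosomal lipase, at 1.01. The 2 on the Ifit1 side, Pank1 at 0.20 and Kif20b at -0.65, were not.

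In the OAS group, genes with a difference above 1 were interleaved with genes near 0. In genome order Oas3 differed by 0.72, Oas1e by 0.03, Oas1c by 1.45, Oas1b by 0.13, Oas1f by 1.12, Oas1a by 1.60 and Oas1d by -0.19, with Oas2, Oas1h and Oas1g not measured on both arrays. The nearest measured genes outside were lower or near 0, with Rasal1 at -0.08 and Dtx1 at -1.08 on one side and Ptpn11 at -0.68 and Rpl6 at -0.20 on the other. Beside the Oasl pair, the 4 nearest measured genes lay between -0.12 and 0.35. These flanking genes were taken for their position and not for their values.

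**Figure D4:**
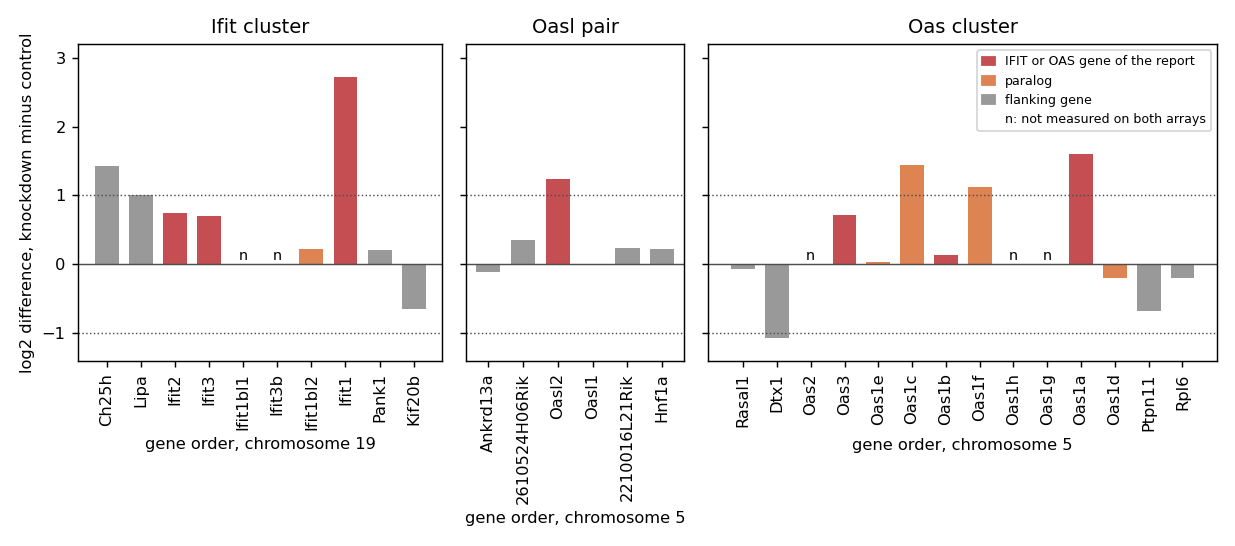
Log2 difference (knockdown minus control, vertical axis) of each gene in genome order for the 3 groups, in red for the IFIT and OAS genes, orange for paralogs and grey for flanking genes, with n where a gene was not measured on both arrays. High and near-zero bars alternate within the OAS cluster, and Oasl2 (1.23) stands beside Oasl1 (-0.01).

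The promoters of these genes were searched for the sequences that interferon factors read. The interferon element was taken as the letters GAAA given again after a gap of 2 bases of any kind, the core that ISGF3 and interferon regulatory factors bind, and the STAT element as TTCNNNGAA, each on both strands and with overlaps allowed. Windows ran from 250 bases before to 50 after each annotated start in RefSeq (GRCm38.p6). Of the 9 genes 7 had one, all but Oas1b and Oas2. The interferon element was present for 4 of 7 genes (57.1%), Ifit1, Ifit3, Oas1a and Oas3, against 3.99% of all 27025 genes with a window. It was present for 5 of 7 paralogs with a window (71.4%) and 13 of 30 other interferon-stimulated genes (43.3%). The STAT element was present for 2 of 7 genes (28.6%), Oas1a and Ifit2, against 9.55% of all genes. A match is a description of letters and does not show binding.

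The 160 bases before the start are shown for the 4 genes that hold the interferon element and for Oasl2, which was 2.35-fold higher and holds none in its window. Each runs 5' to 3' in the direction of the gene, with GRCm38.p6 coordinates, and capitals mark the interferon elements.
Ifit1, chr19:34640729-34640888, plus strand: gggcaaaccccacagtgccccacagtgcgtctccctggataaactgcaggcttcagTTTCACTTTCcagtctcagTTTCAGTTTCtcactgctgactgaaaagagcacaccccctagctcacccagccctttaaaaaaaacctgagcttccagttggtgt
Ifit3, chr19:34583369-34583528, plus strand: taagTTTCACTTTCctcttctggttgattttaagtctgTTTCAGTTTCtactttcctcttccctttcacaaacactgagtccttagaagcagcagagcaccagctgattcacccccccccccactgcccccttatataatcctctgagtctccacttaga
Oas1a, chr5:120907526-120907685, minus strand: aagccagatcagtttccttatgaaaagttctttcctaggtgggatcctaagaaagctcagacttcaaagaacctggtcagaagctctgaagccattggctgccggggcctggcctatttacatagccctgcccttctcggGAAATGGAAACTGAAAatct
Oas3, chr5:120777660-120777819, minus strand: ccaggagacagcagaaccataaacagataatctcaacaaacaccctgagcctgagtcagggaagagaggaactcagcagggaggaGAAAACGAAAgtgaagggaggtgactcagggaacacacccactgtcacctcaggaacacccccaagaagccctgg
Oasl2, chr5:114896774-114896933, plus strand: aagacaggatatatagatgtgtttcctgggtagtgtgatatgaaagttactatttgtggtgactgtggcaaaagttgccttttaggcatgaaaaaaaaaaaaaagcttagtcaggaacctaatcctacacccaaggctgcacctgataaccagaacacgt
Ifit1 holds its elements 104 to 95 and 85 to 76 bases before the start, and Ifit3 at 156 to 147 and 122 to 113. In Oas1a a pair of overlapping elements lies 20 to 11 and 14 to 5 bases before the start, and Oas3 has 1 element at 75 to 66. The windows of Ifit2, Oasl1 and Oasl2 held no interferon element by this search.

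Presence of the element and size of the difference did not go together one to one in these genes. Ifit1 and Oas1a, with 2 elements each, differed by 2.72 and 1.60, but Ifit3 with 2 and Oas3 with 1 differed by 0.70 and 0.72, and Oasl2 with 0 by 1.23. Ifit1 and Ifit1bl2 are transcribed away from each other and differed by 2.72 and 0.22. A window of each holds the same 2 elements, at chr19:34640785-34640794 and chr19:34640804-34640813. Ifit1bl2 also has another annotated start, whose window at chr19:34629762-34630061 holds 0 interferon elements. Which of its starts was in use was not tested. Windows of relatives were also aligned end to end, with gaps counted as differences. Oas1a was 85.3% identical to Oas1g and 44.9% to Oas1c, Ifit3 75.9% to Ifit3b and 50.5% to Ifit1, and Oasl1 42.4% to Oasl2. These shares depend on where each start is annotated. The same 2 element sequences lie 156 to 147 and 122 to 113 bases before the start in Ifit3. In Ifit3b they lie 188 to 179 and 154 to 145 bases before it. No share was computed for unrelated windows, so the lower values do not show that sequence is shared. Oas1g and Ifit3b were not well above background in either sample.

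**Figure D5:**
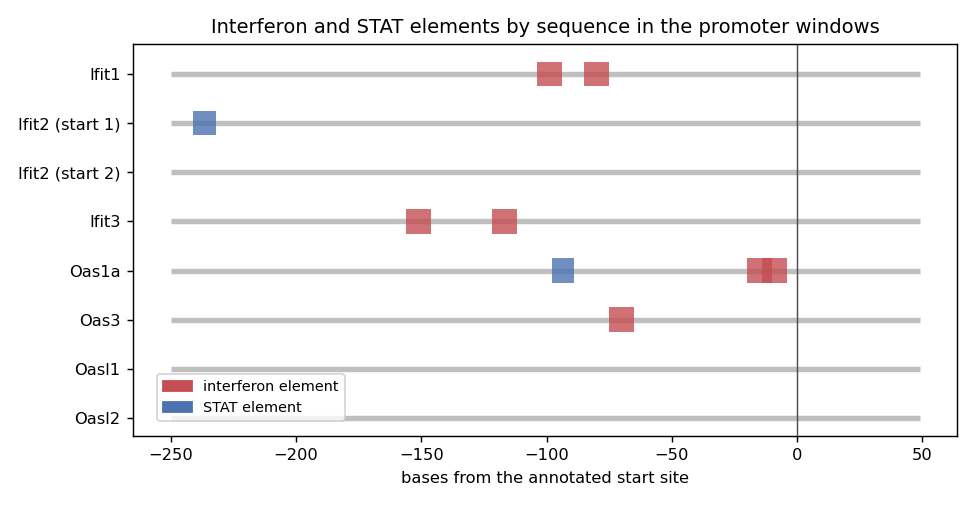
Position of interferon elements (red) and STAT elements (blue) in bases from the annotated start (vertical line at 0) in the promoter windows of 7 genes, grey bars marking the windows searched; Ifit2 has 2 annotated starts. Interferon elements lie between 156 and 5 bases before the start in Ifit1, Ifit3, Oas1a and Oas3.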

How the data were processed

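Total RNA was labelled with Cy3 and hybridised to 1 array per group. The deposited scanner files give an intensity per spot, background-corrected by Agilent Feature Extraction 12.1.0.3 (protocol GE1_1200_Jun14, grid build mm9) per the file headers. They also hold flags and the software's error. The authors' deposited table holds log2 values, which equalled log2 of the processed signal minus 8.94 in either sample (column medians -3.83 and -3.83).

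Groups came from the treatment label. Control and outlier-flagged spots were left out. A probe's level was its mean log2 signal less the 75th percentile of that array (controls excluded), and a gene's value averaged those probes that the software flagged well above background in both samples. A probe above background on 1 array was given a bound against the higher of its own signal and the lowest signal above background on the other. Probes were named through accessions (RefSeq, GRCm38.p6) or symbols. With 1 array a group no test was run, intervals were not possible, and the number of arrays limits the precision. Named are all 9 genes, their measured paralogs and 2-5A partners, Stat5b, Stat5a and flanking genes, and at most the 3 highest and 3 lowest measured genes of each other list. Outside this rule, defining markers and interferons not measured on both arrays are named to give their status. Members and lists were chosen with earlier results of these data known. Protein sequences were not used here. Some listed genes are not reported here and were left out of their lists' counts. The calculation was checked on simulated data. Python 3.11.15, numpy 2.4.6, pandas 2.3.3, R 4.3.3 and limma 3.58.1 were used, and 8 alternatives were tried.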

Additional observations from a re-analysis of the deposited data

How the results depend on the processing

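Under 8 alternatives (normexp background correction, median scaling, the authors' table, the brightest probe, no filter on dim probes, brighter probes alone, leaving out the last 64 rows, and keeping outlier-flagged spots) Ifit1, Ifit2, Ifit3, Oas1a, Oas1b, Oas3 and Oasl2 stayed above 0 wherever they had a value, and Oasl1 lay between -0.04 and 0.01. Ifit1, Ifit2, Ifit3, Oas1a, Oas3 and Oasl2 have 1 probe each, without an outlier flag. Apart from normexp, each alternative that kept such a gene must return the same value or shift all probes alike. Their stability there was fixed in advance and is no separate support. With normexp, Ifit1 differed by 1.50, Ifit2 by 0.43, Ifit3 by 0.19, Oas1a by 0.92 and Oas3 by 0.15, the members' median was 0.31, 2 members passed 2-fold, and 1.16% of all genes passed 2-fold upward and 1.03% downward. The offset of 50 added to every signal compresses dim probes by construction. Without the filter on dim probes Oas1b was at 0.54 and 3.72% of genes were at least 2-fold lower, while the median of all genes was 0.10. With brighter probes alone 2 members were left, Oas1b and Oasl1, 0 members passed 2-fold, the members' median was 0.076, and 2.03% of all genes were at least 2-fold higher. Without the last 64 rows 7 members were measured and 3 passed 2-fold. No paired analysis was possible because each group has 1 array, and for the same reason no replicate could be left out. Signals near the lowest detectable ones, 12.098 and 12.989, limit Ifit3, Oas2 and Oas3.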
